A study of Mus musculus with 12 samples.

Results

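Of the 23997 genes listed for each library, 10 encode the AP-1 and EGR transcription factors described here. They were taken by gene symbol, and they comprise Fos, Fosb, Fosl1 and Fosl2 of the FOS family, Jun, Junb and Jund of the JUN family, the ATF family gene Atf3, and the zinc finger genes Egr1 and Egr2. RNA-seq was performed on bone marrow-derived macrophages (BMDMs), which are macrophages grown in culture from bone marrow, of C57BL/6 male mice aged 8 to 10 weeks. The cells were WT or Pim1-/-, were grown with human M-CSF (10 ng/ml) for 7 days, and were left untreated or treated for 4 h with LPS (100 ng/ml), a bacterial ligand of TLR4. The Pim1-/- mice carry a deletion of exons I–V of Pim1, a serine/threonine kinase gene, in every cell, and were made by CRISPR editing on the same C57BL/6 background. Each of the 4 groups had 3 libraries. Whether the 3 came from separate mice or separate cultures is not given in the sources used here, so the p-values measure the spread between these libraries, which may be technical.

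AP-1 is a dimer of basic leucine zipper proteins. JUN proteins pair with each other, with FOS proteins or with ATF proteins, whereas FOS proteins bind DNA only together with such a partner, so the mix of members present decides which dimers can form. Many of these genes are immediate early genes, whose transcription is switched on by MAP kinase signaling within minutes and usually declines within hours. In macrophages, AP-1 acts beside NF-κB downstream of the TLRs, Atf3 is known as a brake on TLR-induced cytokine genes, and EGR proteins bind GC-rich sites at genes of growth and myeloid differentiation.

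The promoters of 5 members are shown because the results turn on them, with Fos, Fosl2 and Jun lower in Pim1-/- than in WT cells after LPS and Junb and Atf3 raised by LPS in both genotypes. Each window runs 5′ to 3′ on the strand of the gene, from 250 bases before to 50 after the annotated start in RefSeq (GRCm38.p6). Capitals mark matches to the motifs searched on both strands, which were TGACTCA (the AP-1 site), TGACGTCA (the site of ATF and CREB proteins) with 0 or 1 mismatch, the EGR sites GCGTGGGCG and GCGGGGGCG, TATAAA and the CArG box of SRF.
Jun, chr4:95052173-95052472, minus strand: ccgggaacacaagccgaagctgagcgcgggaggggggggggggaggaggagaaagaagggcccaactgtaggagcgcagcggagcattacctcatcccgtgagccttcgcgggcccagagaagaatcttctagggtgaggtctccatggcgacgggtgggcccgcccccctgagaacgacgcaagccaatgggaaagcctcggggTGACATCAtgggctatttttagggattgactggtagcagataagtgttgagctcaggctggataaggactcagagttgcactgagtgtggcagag
Fos, chr12:85473640-85473939, plus strand: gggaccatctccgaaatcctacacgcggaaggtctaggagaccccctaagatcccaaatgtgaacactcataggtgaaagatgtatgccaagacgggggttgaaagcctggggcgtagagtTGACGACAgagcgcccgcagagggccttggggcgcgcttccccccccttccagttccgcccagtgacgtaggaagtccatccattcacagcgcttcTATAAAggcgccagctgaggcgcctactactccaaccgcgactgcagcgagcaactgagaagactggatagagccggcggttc
Fosl2, chr5:32136222-32136521, plus strand: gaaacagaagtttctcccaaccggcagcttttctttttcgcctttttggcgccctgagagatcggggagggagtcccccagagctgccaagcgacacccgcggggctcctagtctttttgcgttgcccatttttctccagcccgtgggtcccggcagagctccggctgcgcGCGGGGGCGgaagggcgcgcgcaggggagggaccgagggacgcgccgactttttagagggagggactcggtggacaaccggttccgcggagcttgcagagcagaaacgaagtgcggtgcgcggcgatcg
Junb, chr8:84978699-84978998, minus strand: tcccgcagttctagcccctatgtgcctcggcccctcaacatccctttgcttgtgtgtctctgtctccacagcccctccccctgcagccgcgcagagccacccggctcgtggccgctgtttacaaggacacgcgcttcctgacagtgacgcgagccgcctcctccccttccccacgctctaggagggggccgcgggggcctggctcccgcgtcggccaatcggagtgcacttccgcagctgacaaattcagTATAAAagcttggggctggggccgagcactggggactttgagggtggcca
Atf3, chr1:191183284-191183583, minus strand: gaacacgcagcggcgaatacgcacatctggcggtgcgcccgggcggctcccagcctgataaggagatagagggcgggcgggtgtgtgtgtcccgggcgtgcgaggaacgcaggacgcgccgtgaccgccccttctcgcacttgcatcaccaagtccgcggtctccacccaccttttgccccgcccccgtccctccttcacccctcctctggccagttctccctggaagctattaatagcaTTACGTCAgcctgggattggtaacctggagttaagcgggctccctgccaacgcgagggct

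The windows of Jun, Fos and Atf3 each held a site that differs from TGACGTCA at 1 base. It read TGACATCA and began 45 bases upstream of the start in Jun, TGACGACA at 129 bases upstream in Fos, and TTACGTCA at 10 bases upstream in Atf3, and windows of Egr2 held such sites too. Such a 1-mismatch site was found in 11.0% of 32851 promoter windows of the same length, and the exact TGACGTCA, which no member's window held, in 1.79%. The EGR site GCGGGGGCG began 79 bases upstream in Fosl2 and was also in the window of Fosb, and 2.91% of all windows held it. Neither TGACTCA, found in 5.20% of all windows, nor GCGTGGGCG, found in 0.612%, was in a window of the 8 members with an entry used here. The RefSeq starts can differ from the gene positions given below. The window of Jund ends at 70697788, before its gene begins at 70698949, and that of Atf3 lies within its gene. TATAAA, in 13.6% of all windows, was in Fos and Junb, and the CArG box, in 1.63%, was in windows of Egr2. None of these matches overlapped another. A match in these letters is a description of the window and does not show binding.

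The deposited values were read as FPKM, that is, fragments per length of transcript and per depth of the library, scaled between libraries by the authors' software. Their sum per library was 452511 to 489710 without treatment and 713307 to 849323 after LPS. On this scale 1 fragment on a kilobase of transcript was estimated to give 0.0218 to 0.0264 FPKM without treatment and 0.0313 to 0.0474 FPKM after LPS. Depth is known only from this estimate, so fewer fragments in a library and a different scaling cannot be told apart. Because the sums differ, changes with LPS were also computed after scaling all libraries to the same sum of FPKM. This moved the median log2 fold change of all genes tested to −0.67 in WT and −0.58 in Pim1-/- cells. Among genes called, the share that was higher moved from 57.8% to 24.1% for LPS in WT cells, from 58.4% to 25.7% for LPS in Pim1-/- cells, from 40.5% to 60.1% for the genotypes after LPS and from 33.6% to 46.0% for the difference in response. Pim1 itself was at 21.5 to 24.96 FPKM in untreated WT, 8.00 to 9.51 in untreated Pim1-/-, 630.2 to 665 in LPS-treated WT and 205 to 236 in LPS-treated Pim1-/- libraries. The value covers the whole gene, including sequence outside the deleted exons, and so does not by itself show the deletion. All 10 macrophage markers examined reached 1 FPKM in at least 1 library of each untreated group, and all but 1 of them did so in each LPS-treated group. Of 38 markers of 7 other cell types, 31 were under 1 FPKM in every library and none was above 7.51 FPKM.

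The 10 members spanned a wide range of levels. In untreated WT cells Atf3 had the highest level at 91.6 FPKM, followed by Junb, Jun and Jund at 44.9, 35.4 and 26.1 FPKM, by Fos and Fosl2 at 6.41 and 3.85, and by Egr1 and Egr2 at 3.33 and 3.08. Egr1 and Egr2 were the neighbours in that order whose libraries overlapped, apart from Fosb and Fosl1 at the bottom at 0.118 and 0.0718 FPKM. The order of the first 6 was the same in untreated Pim1-/- cells. After LPS the order began with Junb, Atf3, Jund and Jun in both genotypes, and then ran Fosl2, Fos, Egr2 and Egr1 in WT cells but Egr2, Fosl2, Fos and Egr1 in Pim1-/- cells, where the libraries of Fosl2 and Fos overlapped. Of the 10 members, 8 had at least 1 FPKM in at least 3 libraries and were tested by limma on log2(FPKM + 1), in a fit of all 10581 genes that met this level. Fosb and Fosl1 were below that level in every library and were not tested. In the annotation Jun overlaps the antisense gene Junos and Jund the antisense gene Gm11175, and Junb, Fosl1 and Atf3 overlap Prdx2, Ccdc85b and Gm24748 on the opposite strand. Whether strand was used in assigning the reads is not given in the sources used here, so reads of these pairs may not have been told apart.

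**Figure D1:**
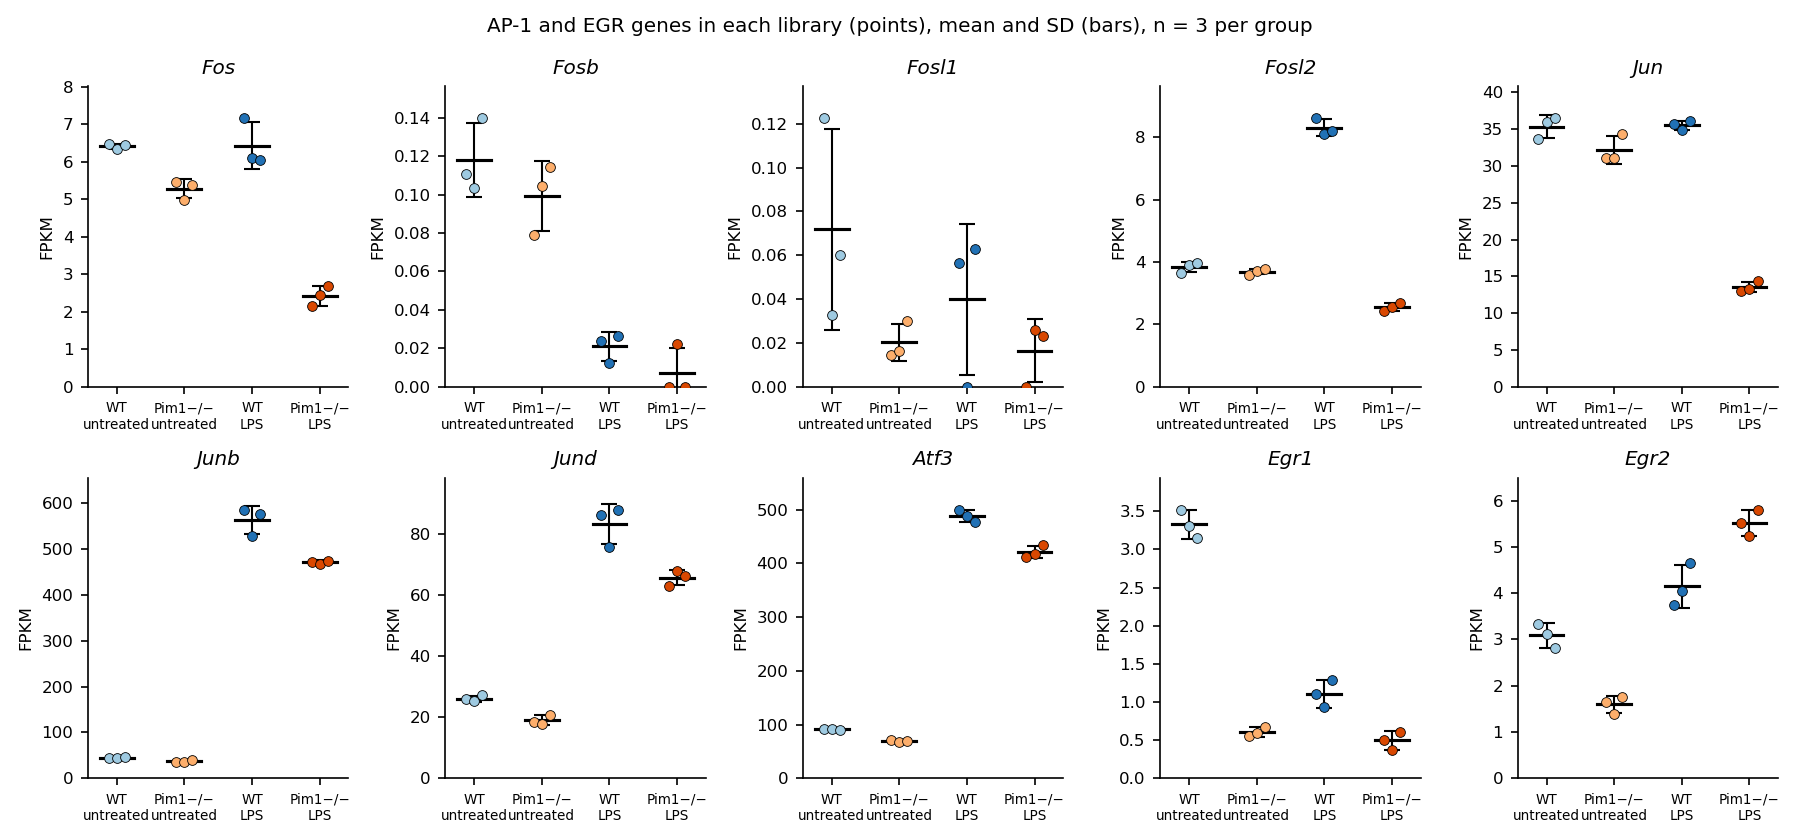
FPKM (linear axis from 0) of the 10 members in each library of the 4 groups, with 1 panel per gene; points are libraries, the wide line is the mean and the error bar the SD (n = 3). Fos, Fosl2 and Jun are low in LPS-treated Pim1-/- libraries (Jun at 13.02 to 14.3 FPKM, against 31.0 to 36.5 in all other libraries), whereas Junb, Jund and Atf3 are high after LPS in both genotypes.

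The comparison of the genotypes after LPS asked which members differ between WT and Pim1-/- macrophages once TLR4 has been engaged. Fosl2, Jun and Fos were lower in Pim1-/- cells, at 30.8%, 38.2% and 37.8% of the WT mean, respectively. Genes were called that passed 3 thresholds together, a change above 2-fold, p below 0.05 and, by the Benjamini-Hochberg method over all genes tested, an FDR below 0.1. Of the 8 members tested, 3 were called lower and 0 higher (limma), where 5.15% of all genes tested were lower and 3.51% were higher. The median log2 fold change of the 8 was −0.41, and that of all genes tested was −0.03. All 8 passed the FDR alone, as did 80.9% of all genes tested. Egr2 was the member with a positive difference. Under scaling to the same sum Fosl2 and Jun were still called, at −1.17 and −1.12 on the log2 scale, and Fos was at −0.91 and no longer past 2-fold.

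Without treatment 1 member was called between the genotypes. Egr1 was called lower in Pim1-/- cells, at 18.2% of the WT mean, and 0 members were called higher, against 3.37% of all genes tested that were lower and 4.4% that were higher. Egr1 met the level for testing only through WT libraries, since all its Pim1-/- values were under 1 FPKM. The call is thus of a gene that the filter admitted through its higher group. The log2 fold changes of all 8 were negative, with a median of −0.33 against −0.05 for all genes tested. At the FDR alone 7 of the 8 passed, where 78.8% of all genes did, and the exception was Fosl2. All 10 macrophage markers were also lower in Pim1-/- than in WT cells under both treatments, with 4 called lower without treatment and 3 after LPS (3.37% and 5.15% of all genes tested). Their summed level, most of it from the lysozyme gene Lyz2, was 27946 to 29997 FPKM in untreated WT and 14412 to 15331 FPKM in untreated Pim1-/- libraries, and 30856 to 31355 and 15948 to 17813 FPKM after LPS. The part of this difference in the members' values was not tested, and in bulk RNA fewer cells of a type and less RNA per cell cannot be told apart. The summed level of 5 stromal markers after LPS, 10.7 to 11.1 FPKM in WT and 2.89 to 3.66 in Pim1-/- libraries, led by Pdgfrb, differed in the same direction, and its part was not tested either.

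The LPS response was examined in each genotype separately. In WT cells Junb, Atf3 and Jund rose and Egr1 fell, which made 3 members higher and 1 lower, where 20.1% and 14.7% of all genes tested were called. In Pim1-/- cells Junb, Atf3, Jund and Egr2 rose and Jun fell, which made 4 higher and 1 lower, where 14.6% and 10.4% of all genes tested were called. At the FDR alone 6 of 8 members passed in WT cells and 7 of 8 in Pim1-/- cells, beside 91.2% and 87.2% of all genes tested. The difference between the responses, tested as an interaction, called Fosl2 and Jun lower and 0 members higher, beside 4.43% and 2.24% of all genes tested. With all libraries at the same sum 2 members were called lower and 2 higher, the latter Egr1 and Egr2, beside 3.62% and 3.09% of all genes tested. Under quantile normalization 1 member was called lower and 0 higher, beside 430 and 311 of 10575 genes tested. At the FDR alone 6 of 8 members differed in response, where 68.5% of all genes did. Between genotypes after LPS, and in the difference in response, an unadjusted p below 0.05 was reached by 1 member higher and 7 lower and by 3 higher and 3 lower, respectively, beside 36.4% higher and 42.2% lower and 31.3% higher and 34.7% lower of all genes tested. The medians of the 8 members were 0.64 in WT cells, 0.61 in Pim1-/- cells and 0.06 for the difference, against 0.00, −0.01 and −0.00 for all genes tested. The comparisons use the same 12 libraries and share groups with each other, so that they are not independent.

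**Figure D2:**
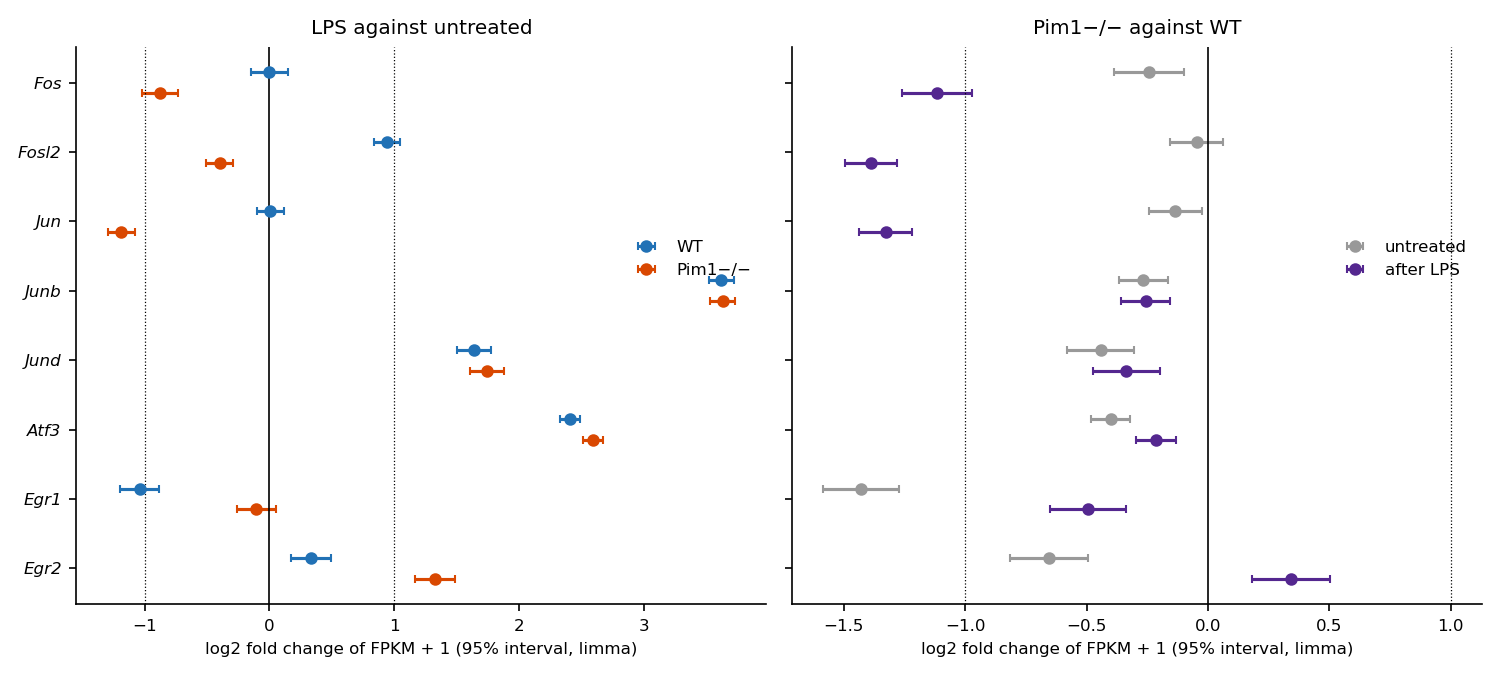
Log2 fold changes of FPKM + 1 of the 8 members tested, as points with 95% intervals from limma; the left panel compares LPS with no treatment in WT (blue) and Pim1-/- cells (orange), the right panel Pim1-/- with WT cells without treatment (gray) and after LPS (purple), and dotted lines mark 2-fold. Junb, Jund and Atf3 have overlapping or nearly overlapping responses, whereas Fos, Fosl2 and Jun are set lower in Pim1-/- cells after LPS, at −1.12, −1.39 and −1.33.

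Fos, the founding member of the FOS family, maps to chr12:85473890-85477273 (GRCm38, plus strand) and has 4 exons in its longest transcript. It was at 6.46, 6.33 and 6.45 FPKM in the untreated WT libraries and at 7.16, 6.09 and 6.04 FPKM after LPS. In Pim1-/- libraries it was at 5.45, 4.98 and 5.38 FPKM without treatment and at 2.16, 2.43 and 2.70 FPKM after LPS. The WT libraries overlapped between treatments, and every LPS-treated Pim1-/- library was below every other library. In WT cells the log2 fold change with LPS was −0.00 ± 0.07 (SE), with a 95% interval from −0.15 to 0.15 (limma, FDR = 1.0). In Pim1-/- cells it was −0.87 ± 0.07 (FDR = 6.0e-09), which is a ratio of 0.461 in FPKM and stays under the 2-fold threshold on the log2(FPKM + 1) scale. That scale understates changes of genes at a few FPKM, and with a pseudocount of 0.1 the same difference was −1.09. The responses depend on the scaling, and with all libraries at the same sum they were −0.70 in WT cells and −1.41 in Pim1-/- cells, the latter called, or −0.03 and −0.82 relative to the median of all genes. The genotype difference was −0.24 ± 0.07 without treatment (FDR = 0.0047) and −1.12 ± 0.07 after LPS (FDR = 7.1e-10). The difference between the responses was −0.87 ± 0.10 (FDR = 1.4e-06).

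Fosl2, which encodes Fra-2, a FOS protein that lacks the strong activation domain of Fos, maps to chr5:32135801-32157842 (plus strand). It was at 3.65, 3.92 and 3.97 FPKM in untreated WT libraries and at 3.60, 3.71 and 3.76 FPKM in untreated Pim1-/- libraries. After LPS it was at 8.61, 8.10 and 8.20 FPKM in WT and at 2.43, 2.56 and 2.68 FPKM in Pim1-/- libraries. The genotypes overlapped without treatment, and after LPS the WT libraries were above and the Pim1-/- libraries below all untreated ones. The log2 fold change with LPS was 0.94 ± 0.05 in WT cells (limma, FDR = 3.7e-11) and −0.40 ± 0.05 in Pim1-/- cells (FDR = 2.2e-06), both under the 2-fold threshold on this scale. The WT ratio was 2.16 in FPKM, and with a pseudocount of 0.1 the WT response was 1.09 and called. The difference between the responses, −1.34 ± 0.07, passed every threshold (FDR = 5.7e-10). So did the genotype difference after LPS of −1.39 ± 0.05 (FDR = 1.8e-12), whereas without treatment it was −0.05 ± 0.05 with a 95% interval from −0.15 to 0.06 (FDR = 0.41). With all libraries at the same sum the responses were 0.25 in WT and −0.91 in Pim1-/- cells, or 0.93 and −0.33 relative to the median of all genes, again with opposite signs.

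Fosb and Fosl1, the other FOS genes, were near the limit of detection. Fosb was at 0.111, 0.104 and 0.140 FPKM in untreated WT, 0.0790, 0.104 and 0.114 in untreated Pim1-/-, and 0.0239, 0.0125 and 0.0267 FPKM in LPS-treated WT libraries. After LPS it was listed at 0 in 2 Pim1-/- libraries and at 0.0221 FPKM in the other. The untreated libraries of both genotypes were above all LPS-treated ones, a difference that was not tested. Fosl1, which encodes Fra-1, was at 0.0328 to 0.123 FPKM in untreated WT and at 0.0144 to 0.0300 FPKM in untreated Pim1-/- libraries, and after LPS it was at 0 to 0.0630 and at 0 to 0.0261 FPKM. From the value of 1 fragment, Fosl1 was estimated to rest on 0 to 7.73 fragments in a library, and Fosb on 12.95 to 21.97 without treatment and on 0 to 2.02 after LPS. The untreated Fosl1 libraries did not overlap between genotypes, a difference that was not tested either.

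Jun, the JUN protein with the strongest activation domain, is a gene of 1 exon at chr4:95049034-95052222 (minus strand). It was at 33.6, 36.0 and 36.5 FPKM in untreated WT and at 31.0, 31.1 and 34.3 FPKM in untreated Pim1-/- libraries. After LPS it was at 35.6, 34.9 and 36.1 FPKM in WT libraries, within the untreated range, and at 13.02, 13.3 and 14.3 FPKM in Pim1-/- libraries, below all others. The log2 fold change with LPS was 0.01 ± 0.05 in WT cells, with a 95% interval from −0.10 to 0.12 (limma, FDR = 0.89). In Pim1-/- cells Jun fell by 1.19 on the log2 scale (SE 0.05, FDR = 3.0e-12), to 42.2% of the untreated mean. The genotype difference after LPS was −1.33 ± 0.05 (FDR = 3.4e-12), and the difference between the responses was −1.19 ± 0.07 (FDR = 2.2e-09). Under quantile normalization 1 member was called for the difference in response, against Fosl2 and Jun here. Without treatment the genotype difference was −0.13 ± 0.05 (FDR = 0.027), with overlapping libraries. The value in WT cells depends on the scaling. Under quantile normalization the WT response of Jun was −0.66, where the median of all genes tested was −0.17. With all libraries at the same sum the WT response of Jun was −0.78, which is −0.11 relative to the median of all genes, and the Pim1-/- response was −1.82, or −1.24 relative to that median.

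Junb, which encodes a JUN protein that can restrain the activity of Jun at some sites, maps to chr8:84974484-84978718 (minus strand). It was at 44.6, 44.0 and 46.1 FPKM in untreated WT and at 35.9, 36.2 and 39.5 FPKM in untreated Pim1-/- libraries. With LPS it rose to 585, 528 and 575 FPKM in WT and to 472, 466 and 474 FPKM in Pim1-/- libraries. The genotypes did not overlap under either treatment, and the treatments were far apart in both genotypes. The rise was 12.5-fold in WT cells, with a log2 fold change of 3.62 ± 0.05 (limma, FDR = 5.1e-19), and 12.7-fold in Pim1-/- cells, with 3.63 ± 0.05 (FDR = 6.5e-19). The difference between these responses was 0.01 ± 0.07, with a 95% interval from −0.13 to 0.15 (FDR = 0.91). The genotype difference was −0.27 ± 0.05 without treatment (FDR = 0.00011) and −0.26 ± 0.05 after LPS (FDR = 0.00014). Both are under 2-fold, and after LPS the sign was reversed under quantile normalization, with 0.015.

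Jund, the JUN gene usually described as expressed in resting cells, is a gene of 1 exon at chr8:70698949-70700616 (plus strand). It was at 25.9, 25.2 and 27.2 FPKM in untreated WT and at 18.5, 17.7 and 20.8 FPKM in untreated Pim1-/- libraries. The LPS-treated libraries were at 86.2, 75.8 and 88.0 FPKM in WT and at 62.9, 67.9 and 66.4 FPKM in Pim1-/- libraries, above all untreated libraries and lower in each Pim1-/- than in each WT library. It rose by 1.63 ± 0.06 on the log2 scale in WT cells (limma, FDR = 6.1e-13) and by 1.74 ± 0.06 in Pim1-/- cells (FDR = 3.9e-13), and the responses differed by 0.11 ± 0.09, with a 95% interval from −0.09 to 0.30 (FDR = 0.32). With all libraries at the same sum the response in WT cells was 0.84, under 2-fold, and 1.51 relative to the median of all genes. The genotype differences, −0.44 ± 0.06 without treatment (FDR = 1.5e-05) and −0.34 ± 0.06 after LPS (FDR = 0.00020), were under 2-fold.

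Atf3, a stress-induced partner of JUN proteins, maps to chr1:191170296-191218039 (minus strand). It was at 91.7, 92.6 and 90.4 FPKM in untreated WT and at 70.5, 67.0 and 70.1 FPKM in untreated Pim1-/- libraries. LPS raised it to 499.8, 489 and 478 FPKM in WT and to 412, 418 and 434 FPKM in Pim1-/- libraries. The Pim1-/- libraries were below the WT libraries under both treatments with no overlap. The rise was 5.34-fold in WT cells, with a log2 fold change of 2.40 ± 0.04 (limma, FDR = 4.9e-18), and 6.09-fold in Pim1-/- cells, with 2.59 ± 0.04 (FDR = 2.8e-18). The response was larger in Pim1-/- cells by 0.19 ± 0.05 (FDR = 0.0070), a difference under 2-fold. The genotype difference was −0.40 ± 0.04 without treatment (FDR = 1.4e-07) and −0.21 ± 0.04 after LPS (FDR = 9.7e-05), and the latter was 0.12 under quantile normalization.

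Egr1, a zinc finger factor and a classical target of ERK signaling, lies on chromosome 18. It was at 3.52, 3.31 and 3.15 FPKM in untreated WT libraries and at 0.552, 0.598 and 0.671 FPKM in untreated Pim1-/- libraries. With LPS its level was at 1.10, 0.932 and 1.29 FPKM in WT and at 0.508, 0.371 and 0.610 FPKM in Pim1-/- libraries. Untreated WT cells stood above all other groups, and the Pim1-/- libraries overlapped between treatments. Every Pim1-/- library was under 1 FPKM, so Egr1 was tested only because WT libraries reached that level. Between the untreated groups Egr1 was lower in Pim1-/- cells, by −1.43 ± 0.07 on the log2 scale (limma, FDR = 1.0e-10), which in FPKM is a 5.48-fold difference. With LPS it fell in WT cells, by 1.04 on the log2 scale (SE 0.07, FDR = 1.3e-09), to 33.3% of the untreated mean. The call was lost without LPS-treated WT replicate 2, where the value was −0.98, and under quantile normalization, where it was −0.71. In Pim1-/- cells the log2 fold change was −0.11 ± 0.07, with a 95% interval from −0.26 to 0.05 (FDR = 0.19). The responses differed by 0.93 ± 0.10 (FDR = 1.5e-06), which was 1.20 and called with all libraries at the same sum, and after LPS the genotypes differed by −0.49 ± 0.07 (FDR = 1.7e-05), or −1.03 with a pseudocount of 0.1.

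Egr2, which is known for its part in macrophage maturation and in alternatively activated macrophages, maps to chr10:67535475-67542188 (plus strand). It was at 3.34, 3.11 and 2.81 FPKM in untreated WT and at 1.65, 1.39 and 1.75 FPKM in untreated Pim1-/- libraries. After LPS it was at 3.74, 4.05 and 4.65 FPKM in WT and at 5.51, 5.24 and 5.80 FPKM in Pim1-/- libraries. The order of the genotypes was thus opposite under the treatments, lower in Pim1-/- without LPS and higher with it, with no overlap in either. The genotype difference was −0.65 ± 0.08 without treatment (limma, FDR = 1.2e-06) and 0.34 ± 0.08 after LPS (FDR = 0.00066). Egr2 rose 3.46-fold in Pim1-/- cells, with a log2 fold change of 1.33 ± 0.08 (FDR = 1.0e-10), and had a log2 fold change of 0.33 ± 0.08 in WT cells (FDR = 0.00067). The responses differed by 1.00 ± 0.11 (FDR = 1.0e-06), a value just under the 2-fold threshold that passed it when any of 5 libraries was left out and, at 1.16, with all libraries at the same sum. With all libraries at the same sum the WT response changed sign, to −0.30, and was 0.37 relative to the median of all genes, while the response in Pim1-/- cells was 0.86 and no longer past 2-fold.

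Shares within a library do not depend on how libraries are scaled, and FPKM can be summed across genes because it is set per length. Jun made up 33.2% ± 0.944 (SD, n = 3) of the summed JUN family FPKM in untreated WT and 36.4% ± 0.163 in untreated Pim1-/- cells. After LPS it made up 5.22% ± 0.216 in WT and 2.46% ± 0.104 in Pim1-/- cells, while the share of Junb went from 42.2% and 42.1% to 82.6% and 85.6%. The ratio of Junb to Jun was 1.27 ± 0.0518 and 1.16 ± 0.00723 without treatment, 15.8 ± 0.649 in LPS-treated WT and 34.8 ± 1.56 in LPS-treated Pim1-/- cells, with no overlap between any of these groups. In the FOS family, Fos and Fosl2 made up nearly all of the FPKM. Fosl2 had a share of 36.8% ± 1.30 in untreated WT, 40.6% ± 1.38 in untreated Pim1-/-, 56.2% ± 1.63 in LPS-treated WT and 51.1% ± 1.70 in LPS-treated Pim1-/- cells. After LPS the summed FOS family was at 14.8 ± 0.912 FPKM in WT cells, against 5.01 ± 0.409 in Pim1-/- cells, and the summed JUN family at 682 ± 37.6 and 549.9 ± 4.37 FPKM. JUN over FOS was thus 46.1 ± 2.31 in LPS-treated WT and 110.2 ± 8.47 in LPS-treated Pim1-/- cells, against 10.2 ± 0.146 and 9.72 ± 0.429 without treatment. Egr1 over Egr2 was 1.08 ± 0.0374 in untreated WT, 0.383 ± 0.0484 in untreated Pim1-/-, 0.268 ± 0.0334 in LPS-treated WT and 0.0894 ± 0.0173 in LPS-treated Pim1-/- cells. These shares and ratios were not tested.

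**Figure D3:**
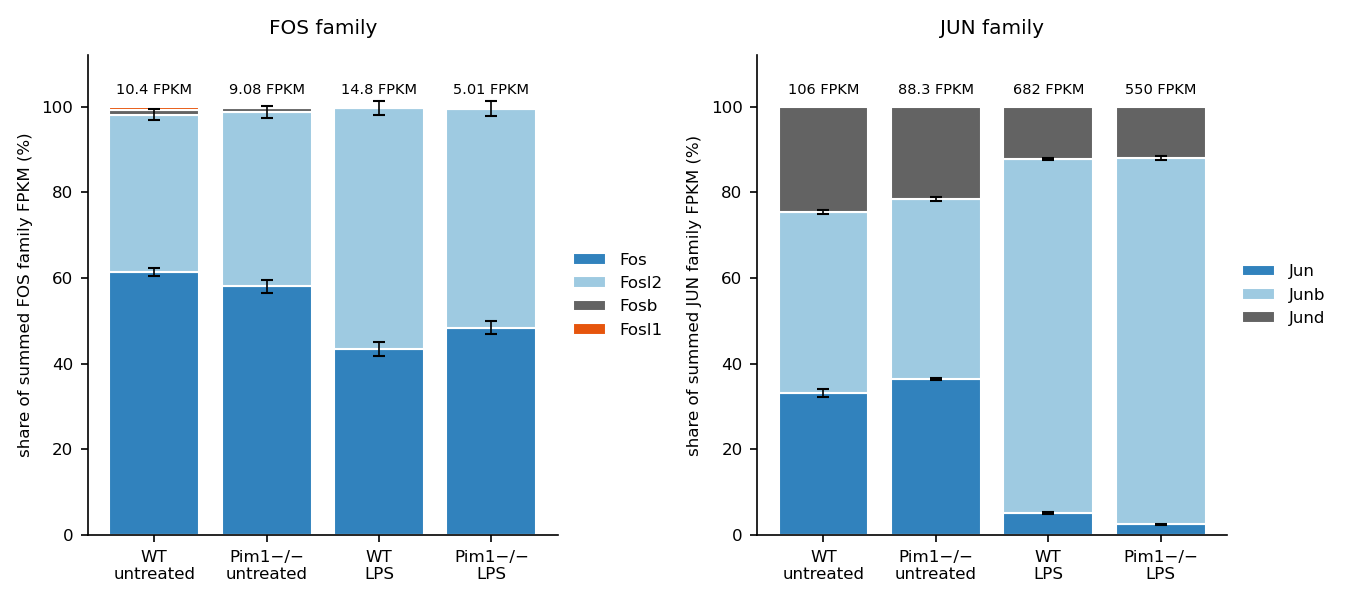
Share (%) of each gene in the summed FPKM of the FOS family (left) and the JUN family (right) in the 4 groups, as the mean of 3 libraries, with the SD at the upper edge of the 2 largest FOS segments and of the Jun and Junb segments, and the summed FPKM above each bar. After LPS the share of Jun is 5.22% in WT and 2.46% in Pim1-/- cells and that of Junb is 82.6% and 85.6%.

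Other genes of the pathway were described from lists of textbook members. Of 16 genes for other leucine zipper partners, EGR genes and their NAB corepressors, 14 were tested. LPS called 7 higher and 1 lower in WT cells (20.1% and 14.7% of all genes tested) and 6 higher and 1 lower in Pim1-/- cells (14.6% and 10.4%). Between genotypes after LPS 3 were called lower and 0 higher (limma), beside 5.15% and 3.51% of all genes tested, with a median of −0.38, close to the −0.41 of the members. Maf, a macrophage leucine zipper factor, was at 136 ± 6.81 FPKM in WT and 34.6 ± 1.176 in Pim1-/- cells after LPS, and was lower without treatment too, at 105 ± 4.13 and 40.0 ± 1.46 FPKM. Batf2 and Batf3, partners that pair with JUN proteins, were at 88.5 ± 3.51 and 2.60 ± 0.171 FPKM in LPS-treated WT and at 35.3 ± 1.86 and 0.205 ± 0.0879 FPKM in LPS-treated Pim1-/- cells. The log2 fold changes were −1.94, −1.30 and −1.58 (limma, FDR = 2.5e-14, 1.4e-09 and 1.0e-10), and Batf2 was at −0.95 under quantile normalization. Batf3 was under 1 FPKM in every Pim1-/- library and met the level for testing only through WT libraries, where it was higher. Jdp2, a JUN partner that represses AP-1 sites, was higher in untreated Pim1-/- cells, at 6.33 ± 0.437 against 2.63 ± 0.169 FPKM (log2 fold change 1.01, FDR = 7.2e-10).

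The MAP kinase list, which leads to these genes, had 19 of 21 genes tested. Between genotypes after LPS 0 of the 19 were called in either direction (limma), beside 5.15% lower and 3.51% higher of all genes tested. At an unadjusted p below 0.05, 14 were lower and 2 higher, where 42.2% and 36.4% of all genes tested were, and their median was −0.43, against −0.03 for all genes tested. Without treatment Map3k8, the kinase that couples TLR signals to ERK, was called lower in Pim1-/- cells, at 3.72 ± 0.343 against 8.68 ± 0.158 FPKM (log2 fold change −1.04, FDR = 6.0e-11). Of the 8 genes for SRF, its cofactors and CREB, all tested, 0 were called between genotypes under either treatment (limma). Of all genes tested, 5.15% were called lower and 3.51% higher after LPS, and 3.37% and 4.4% without treatment. At an unadjusted p below 0.05, 5 of the 8 were lower and 1 higher after LPS, and 3 lower and 1 higher without treatment, where 42.8% and 33.4% of all genes tested were. The median of the 8 after LPS was −0.36. In the difference in response 0 genes of either list were called (limma), beside 4.43% lower and 2.24% higher of all genes tested. There 8 lower and 4 higher genes of the MAP kinase list and 3 lower genes of the other had an unadjusted p below 0.05, beside 34.7% and 31.3% of all genes tested.

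Of 24 other immediate early genes 20 were tested, and LPS called 14 higher and 2 lower in WT and 12 higher and 0 lower in Pim1-/- cells. In WT cells 20.1% and 14.7% and in Pim1-/- cells 14.6% and 10.4% of all genes tested were called. Between genotypes after LPS 5 were called lower and 1 higher, beside 5.15% and 3.51% of all genes tested, and with all libraries at the same sum 3 lower and 1 higher, beside 3.12% and 4.71%. The difference in response called 4, all with a lower response in Pim1-/- cells, where 4.43% of all genes tested were called so. Dusp1, a phosphatase that inactivates p38 and JNK, was at 167 ± 1.89 FPKM in LPS-treated WT and at 22.8 ± 0.188 in LPS-treated Pim1-/- cells, against 2.33 ± 0.237 and 3.85 ± 0.537 without treatment, and its responses differed by −3.36 (limma, FDR = 1.2e-12). Dusp2, a phosphatase of the same family, was at 326 ± 15.2 and 98.8 ± 2.08 FPKM after LPS, with a difference in response of −1.41 (FDR = 1.2e-10). Ier2 was at 79.7 ± 5.62 and 24.5 ± 1.72 FPKM, with −1.21 (FDR = 1.4e-08), although this was −0.78 and under 2-fold with quantile normalization. Myc, a growth regulator, was higher in untreated Pim1-/- cells, at 5.65 ± 0.191 against 2.01 ± 0.193 FPKM, and at 7.26 ± 0.450 and 10.2 ± 0.716 FPKM after LPS, with a difference of −1.59 (FDR = 9.9e-10). Ier3 and Zfp36, which encodes an mRNA decay factor, were lower in untreated Pim1-/- cells by −1.69 and −1.23 (FDR = 2.2e-13 and 1.4e-10), and Rgs1, a regulator of G protein signaling, was higher by 1.58 (FDR = 4.2e-11). In the plot of both responses Jun, Fosl2, Dusp1, Dusp2, Ier2 and Myc lie more than 2-fold below the line of equal response.

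**Figure D4:**
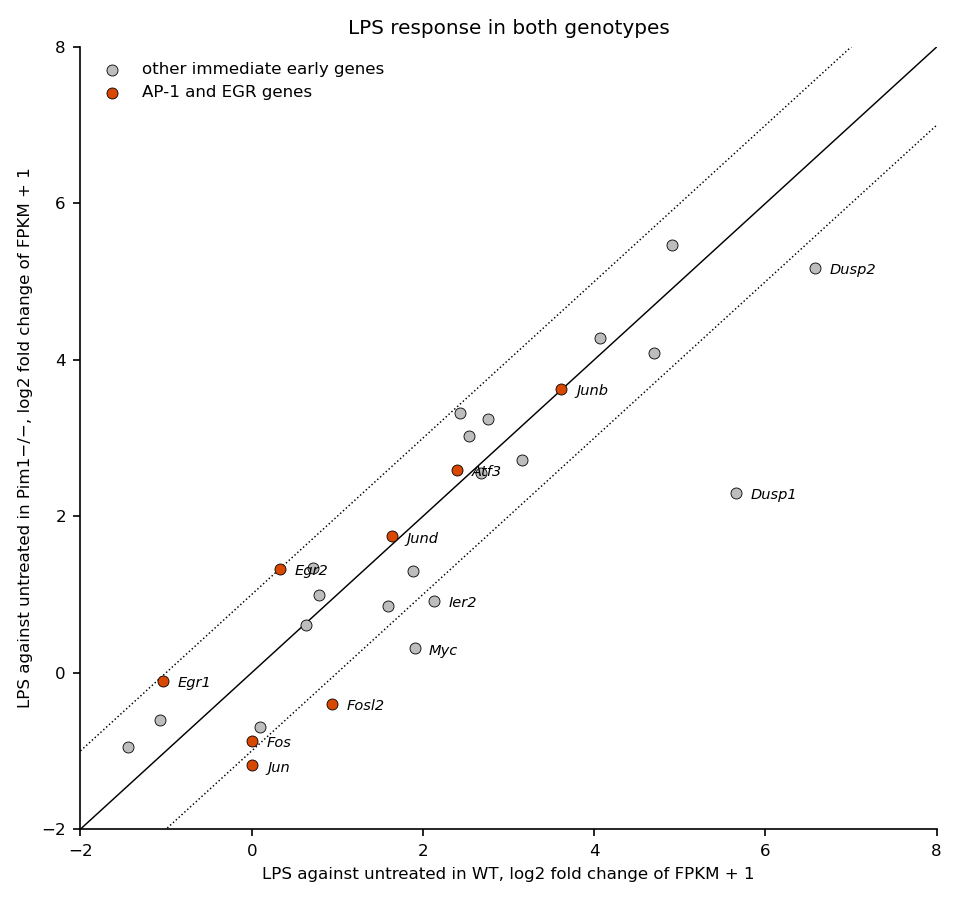
Log2 fold change of FPKM + 1 with LPS in WT (x axis) against Pim1-/- cells (y axis) for the 8 members tested (orange, named) and 20 other immediate early genes (gray, those called for the difference in response named); the solid line marks equal responses and dotted lines a 2-fold difference. Junb, Jund and Atf3 lie near the line, Jun and Fosl2 below the lower dotted line with differences of −1.19 and −1.34, and Egr1 and Egr2 near the upper one with 0.93 and 1.00.

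The textbook targets of AP-1 differed in both directions. Of 21 such genes 18 were tested, and 3 were called lower and 3 higher in Pim1-/- cells in the comparison of genotypes after LPS, beside 5.15% and 3.51% of all genes tested, with a median of −0.10. The collagenase gene Mmp13 and the protease inhibitor gene Timp1 were among those lower (limma), at 535.9 ± 34.1 against 1687 ± 63.1 and 4.80 ± 0.224 against 18.9 ± 0.728 FPKM. The other direction was shown by the GM-CSF gene Csf2, which after LPS was at 21.5 ± 1.69 FPKM in Pim1-/- cells against 1.31 ± 0.566 FPKM (FDR = 1.7e-12), by the neutrophil chemokine gene Cxcl2, at 2704 ± 35.6 and 1070 ± 43.4 FPKM, and by the elastase gene Mmp12, at 313 ± 25.6 and 76.7 ± 0.513 FPKM. Among the genes called for the difference in response were Timp1 (−1.47) and Mmp13 (−1.40), which rose less in Pim1-/- cells, and Csf2 (3.30) and Cxcl2 (1.70), which rose more. Ccnd1 (−1.95) was called too, and it fell with LPS in both genotypes, by −1.09 in WT and −3.04 in Pim1-/- cells on the log2 scale. Ccnd1, which encodes cyclin D1, was itself higher in Pim1-/- cells, at 42.3 ± 2.42 against 6.15 ± 0.315 FPKM without treatment and at 4.28 ± 0.237 against 2.37 ± 0.148 FPKM after LPS. The urokinase gene Plau was likewise higher in untreated Pim1-/- cells, at 38.1 ± 3.06 against 11.8 ± 0.509 FPKM. Whether these targets follow the members was not tested.

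The usual LPS-induced genes show that both genotypes responded to the treatment. Tnf, Il6, Il1b, Nos2, Ifnb1 and Cxcl10 were all called higher with LPS in both genotypes, beside 20.1% of all genes tested in WT and 14.6% in Pim1-/- cells. Between genotypes after LPS 0 of the 6 were called (limma), beside 5.15% of all genes tested that were lower and 3.51% that were higher. An unadjusted p below 0.05 was reached there by 3 lower and 1 higher, beside 42.2% and 36.4% of all genes tested. After LPS Tnf was at 3734 ± 104 FPKM in WT cells and at 3959 ± 195 in Pim1-/- cells, and Il6 at 1278 ± 38.9 and 1358 ± 105 FPKM, with overlapping libraries in both. Il1b was at 8515 ± 135 and 4436 ± 321 FPKM, Nos2 at 272 ± 3.96 and 147 ± 18.4 FPKM, and Ifnb1 at 8.50 ± 0.906 and 15.5 ± 1.27 FPKM, each under 2-fold on the log2(FPKM + 1) scale. Cxcl10 was lower in untreated Pim1-/- cells, at 0.338 ± 0.00996 against 4.64 ± 0.405 FPKM, and close after LPS, at 9897 ± 143 against 11631 ± 291 FPKM. Its log2 fold change with LPS was 11.01 in WT and 12.85 in Pim1-/- cells. It was the 1 gene of the 6 called for the difference in response (limma), as higher, beside 2.24% of all genes tested. Fos, Fosl2 and Jun were lower in the same Pim1-/- libraries whose Tnf and Il6 values overlapped with those of the WT libraries. The values of Il1b, Nos2, Cxcl10 and Ifnb1 did not overlap between these libraries, with Ifnb1 higher and the others lower in Pim1-/- cells.

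The genes with the pattern most like each member's were sought among 7281 genes that averaged 5 FPKM or more, by Pearson's r of log2(FPKM + 1) over the 12 libraries. The value is a description, because the libraries fall into 4 groups whose means set it. For Jun these were Extl3 (r = 0.996) and Txndc5 (r = 0.995), and for Fos Txndc5 (r = 0.988) and Cyth4 (r = 0.987). Cyth4, for example, was at 142 and 106 FPKM in untreated WT and Pim1-/- cells and at 128 and 32.1 FPKM after LPS. For Fosl2 they were Cyb5b and Capn2 (both r = 0.994). For Junb they were Isg20 and Traf1 (both r = 1.00 to 3 digits), for Atf3 Nlrp3 and Cmpk2 (likewise 1.00), and for Jund Marcksl1 and Rfx5 (both r = 0.997), genes that were high after LPS in both genotypes. Nlrp3, the inflammasome sensor, was at 12.7 and 7.77 FPKM without treatment and at 252 and 190.4 FPKM after LPS. For Egr1 they were Hexa (r = 0.988) and Vps33a (r = 0.986), highest in untreated WT cells, and for Egr2 Ubb (r = 0.983) and Akap13 (r = 0.981), highest in LPS-treated Pim1-/- cells.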

How the data were processed

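RNA-seq libraries of WT and Pim1-/- BMDMs, untreated or treated with LPS, were analysed as deposited, with 3 libraries in each of 4 groups taken from the GEO labels. Libraries were made with a stranded mRNA kit and sequenced on an Illumina instrument. The submitters' processing notes name bcl2fastq (version 2.20.0.422), cutadapt (version 1.18), TopHat2 (version 2.0.13), Cuffdiff (version 2.2.1) and the mouse build mm10, whereas the methods name rat rn5. Of the 23997 gene names 22694 matched GENCODE M21 (GRCm38), from which positions were taken. The authors deposited 1 column of values per library without naming its unit, and these were taken as the FPKM that Cuffdiff gives. Depth is known only from the estimated value of 1 fragment.

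The 10581 genes that reached 1 FPKM in 3 or more libraries were fitted with limma (version 3.58.1, R 4.3.3) on log2(FPKM + 1) as 4 group means with a mean-variance trend. This scale understates the changes of low genes. The same step was tested on simulated data. The thresholds were those of the study for differentially expressed genes, applied in both directions. Python (version 3.11.15) with pandas (version 2.3.3), numpy (version 2.4.6) and matplotlib (version 3.10.9) was used for the rest. Promoters came from RefSeq (GRCm38.p6), with an entry used for 8 of the 10 members. Alternatives were a pseudocount of 0.1, other filters and thresholds, median-ratio and quantile scaling, fits of only the groups compared, no trend, the replicate block and leaving out each library. Scaling to the same sum of FPKM was added after seeing the data.

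The members and the gene lists were chosen with earlier results of these data known. Besides the 10 members and Pim1, the text names from each list the genes called for the difference in response, the 3 called genes with the largest change between genotypes under each treatment, the 6 LPS-induced genes and the 2 genes most like each member. Lyz2 and Pdgfrb were named after their values were seen. A gene that this rule would name is counted in its list but not reported here. Libraries of different groups share replicate numbers. Over 3646 genes, deviations from the group means were correlated between libraries with the same number. They gave r of 0.33, 0.37 and 0.46 between genotypes without treatment and 0.43, 0.54 and 0.68 between treatments in Pim1-/- cells. The values were 0.02, 0.37 and 0.19 between genotypes after LPS and −0.10, 0.14 and 0.19 between treatments in WT cells. Libraries with different numbers were not compared, and the labels do not say what the numbers mark. Whether the numbers pair libraries was therefore not tested.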

Additional observations from a re-analysis of the deposited data

Results flagged for a closer look

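The response to LPS differed between Pim1-/- and WT cells for 6 of the 8 members tested, by the interaction in limma at an FDR below 0.1, which 68.5% of all genes tested passed. The log2 difference, Pim1-/- minus WT, was −0.87 for Fos, −1.34 for Fosl2 and −1.19 for Jun, and only those of Fosl2 and Jun were past 2-fold on this scale. In the ratio of FPKM ratios these were 0.459, 0.321 and 0.420, respectively. The difference was 0.19 for Atf3, 0.93 for Egr1 and 1.00 for Egr2, or 1.14, 2.45 and 2.57 as ratios of FPKM ratios. With all libraries at the same sum the differences of Egr1 and Egr2 were 1.20 and 1.16, and both were called higher, beside 3.09% of all genes tested. Under quantile normalization 1 member was called lower and 0 higher for the difference in response, beside 430 and 311 of 10575 genes tested. Fosl2 had responses of opposite sign, 0.94 in WT and −0.40 in Pim1-/- cells. On the deposited scale the LPS-treated Pim1-/- libraries stood apart for Fos and Jun, whereas with all libraries at the same sum the WT responses were −0.70 and −0.78. For Egr1 the untreated WT libraries stood apart, and for Egr2 the order of the genotypes was opposite with and without LPS. All 10 macrophage markers were lower in Pim1-/- cells under both treatments, with median log2 fold changes of −0.89 without treatment and −0.88 after LPS, and their difference in response had a median of 0.05. Their part in the members' differences was not tested.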

How the results depend on the processing

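The deposited scale limits what can be said of LPS responses near 0, and FPKM without counts limits Egr1, Fosb and Fosl1. Fits with the replicate block, without a trend, without a filter or on only the groups compared changed no count of members called by more than 1.5 times. With the replicate block the counts were 4 in WT and 5 in Pim1-/- cells for LPS, 1 and 3 between genotypes without treatment and after LPS, and 2 for the difference in response, and no call of a member changed. The share of all genes called with the block was not counted. In untreated cells the count between genotypes was 7 at an FDR below 0.05 with no fold threshold. Of 10581 genes tested, 3465 were higher and 4439 lower there. The count was 0 with a filter of 5 FPKM, which leaves Egr1 untested. After LPS it was 8 with no fold threshold, beside 3782 genes higher and 4412 lower. For the difference in response it was 6 with no fold threshold, beside 3137 higher and 3520 lower. With a pseudocount of 0.1 it was 5 (2 of them higher), beside 510 higher and 565 lower. Under quantile normalization it was 1, beside 311 higher and 430 lower of 10575 genes. With all libraries at the same sum it was 4 (2 of them higher), with a pseudocount of 1 or 0.1. Of 10708 genes tested, 331 were higher and 388 lower with a pseudocount of 1, and 732 and 434 with 0.1. The WT response of Fos was 0.018 under median-ratio scaling and 0.052 under quantile normalization and was −0.70 and −0.80 at the same sum with a pseudocount of 1 and 0.1, and ranged from −0.069 to 0.037 when each library was left out. That of Jun was −0.66 under quantile normalization and −0.78 and −0.80 at the same sum with a pseudocount of 1 and 0.1, and ranged from −0.027 to 0.030 over the libraries left out. That of Egr2 was −0.30 and −0.38 at the same sum. After LPS the genotype difference of Junb was 0.015 and that of Atf3 0.12 under quantile normalization. The difference in response of Junb ranged from −0.035 to 0.053 over the libraries left out. The same-sum values follow from the lower scale that it gives LPS libraries, and the cause of the others was not tested. Leaving out 1 library gave 3 to 4 members for LPS in WT cells and 2 to 3 for the difference in response, since Egr1 was lost without LPS-treated WT replicate 2 and Egr2 was gained without untreated WT replicate 3, untreated Pim1-/- replicate 1 or 3, LPS-treated WT replicate 3 or LPS-treated Pim1-/- replicate 2. Other counts did not change. Of the values of single members under an alternative, 842 kept direction and side of the threshold, 38 passed it anew, 8 no longer passed it and 19 changed sign. Many of these fold changes could not move, so the 842 overstate how far the results hold. The replicate block and the fit without a trend leave fold changes as they are. So does leaving out a library that is not in the groups compared.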
